A study of Mus musculus with 8 samples.

Results

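Antigen-experienced CD8+ T cells of the spleen were set against antigen-experienced CD4+ T cells of the same organ in MRL/lpr mice, a lupus-prone strain whose lpr mutation disrupts Fas, the death receptor that normally limits lymphocyte numbers. The comparison takes 4 of the 8 RNA sequencing libraries of the study, 2 of spleen CD8+ cells and 2 of spleen CD4+ cells, chosen by their labels. The other 4 libraries hold CD8+ and CD4+ cells of the kidney. In every group the mice were MRL/lpr animals of 14 weeks, no treatment is named, and cells were sorted for high surface CD44, a protein that marks T cells that have met antigen. No wild-type MRL mice and no CD44-low cells were among the groups, so the comparison is between lineages within 1 diseased strain. The labels do not say whether the libraries of a group came from separate mice or from pooled ones, so the p-values below measure only the spread between these libraries, which may be technical.

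CD8+ and CD4+ T cells leave the thymus as separate lineages. CD8+ cells read peptides on MHC class I through the CD8 coreceptor and can kill their targets with granules that hold perforin and granzymes, whereas CD4+ cells read peptides on MHC class II and act mainly through cytokines and surface ligands such as CD40L, which license B cells and macrophages. CD4+ cells also include regulatory T cells, driven by the transcription factor Foxp3, and follicular helper cells, which guide B cells in germinal centres. In lupus the spleen is a main site where helper cells meet autoreactive B cells, and MRL/lpr mice also build up T cells that carry neither coreceptor, which a sort on CD4 or CD8 leaves out.

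Values below are normalised levels, meaning read counts that the authors divided by 1 factor per library. They are not corrected for gene length, so levels are compared between libraries and not between genes. Depth was 10766521 and 7559659 reads for spleen CD8+ cells and 11169003 and 7477544 reads for spleen CD4+ cells, and 1 read was worth 0.554 to 0.955 of level. Between 11315 and 11783 genes had a read in a spleen library. Replicates were close, with a Pearson r of log2 levels across genes, which are not independent, of 0.954 in CD8+ cells and 0.941 in CD4+ cells. The kidney CD4+ pair stands apart from every other pair of the study. The log2 levels of its replicates differed with an SD of 1.56, while the SD was 0.632 for kidney CD8+, 0.392 for spleen CD8+ and 0.397 for spleen CD4+ replicates. These SDs cover only the 4465 genes with a mean spleen level of 100 or more, averaged on the log2 scale. A choice by spleen levels can favour the spleen pairs. The kidney libraries were therefore kept out of the spleen test and enter only where the organs are set side by side.

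The sorted markers followed the labels. Cd8a, the alpha chain of the CD8 coreceptor, had a level of 12159 and 12188 in CD8+ cells, against 1.11 and 2.59 in CD4+ cells (log2 fold change 12.11 ± 0.31 SE, adjusted p = 1.57e-11). Cd8b1, the beta chain, had 15588 and 17552 in CD8+ cells, against 110 and 81.1 in CD4+ cells (log2 fold change 7.44 ± 0.20, adjusted p = 1.62e-11). Cd4 had 0 and 3.82 in CD8+ cells, against 1694 and 1365 in CD4+ cells (log2 fold change -9.44 ± 0.61, adjusted p = 1.95e-07). Cd8a and Cd8b1 are neighbours on chromosome 6 of build mm9, at chr6:71323421-71329165 and chr6:71272830-71287471, both on the plus strand. In the CD4+ libraries Cd8b1 kept 293 reads and Cd8a 5. The T cell genes that both lineages share overlapped between the groups. Cd3e, one of the CD3 chains of the T cell receptor, had 5367 and 6536 in CD8+ cells and 6826 and 5928 in CD4+ cells. Ptprc, which encodes the leukocyte phosphatase CD45, had 3198 and 2877 in CD8+ cells and 2956 and 2601 in CD4+ cells. Neither gene passed the test (log2 fold change -0.10 ± 0.18 and 0.13 ± 0.17, adjusted p = 0.829 and 0.770), and the sign for Cd3e turned to 0.039 without CD8+ replicate 1. Cd44 itself, used for the gate, had 182 and 282 in CD8+ cells, against 637 and 586 in CD4+ cells (log2 fold change -1.43 ± 0.25, adjusted p = 0.00277).

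The test covered 9643 of the 13341 genes in the table, those that reached a level of 10 in 2 or more of the 4 libraries. At an adjusted p below 0.05, 702 genes or 7.28% differed. Of these, 284 (2.95%) were higher and 418 (4.33%) lower in CD8+ cells. The falls were the steeper side. Among them 371 of 418 (88.8%) were at least 2-fold and 88 (21.1%) at least 16-fold, while among the rises 184 of 284 (64.8%) were at least 2-fold and 28 (9.86%) at least 16-fold. The median log2 fold change was 1.24 for called rises and -2.07 for called falls, and -0.05 over all genes tested. Of the called genes, 23 that fell had 0 reads in both CD8+ libraries and 3 that rose had 0 reads in both CD4+ libraries. Whether called or not, the groups did not overlap in 47.8% of the genes tested, with CD8+ cells higher in 20.9% and CD4+ cells higher in 27%. In these bulk samples, fewer cells of a type and less RNA per cell cannot be told apart. The counts move with single libraries. Without CD4+ replicate 1 they were 24 higher and 16 lower, without CD4+ replicate 2 they were 25 and 23, without CD8+ replicate 1 they were 103 and 224, and without CD8+ replicate 2 they were 136 and 326. Of 107 called genes named by rule, 17 kept the call under every alternative run. They are Cd8a, Cd8b1, Cd7, Ctsw, Gzma, Ly6c2, Klrk1, Klrc1, Klrd1 and Fcgrt among the rises, and Foxp3, Il10, Maf, Icos, Izumo1r, Nrp1 and Tnfrsf4 among the falls. All 107 kept their sign wherever a value could be had.

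**Figure D1:**
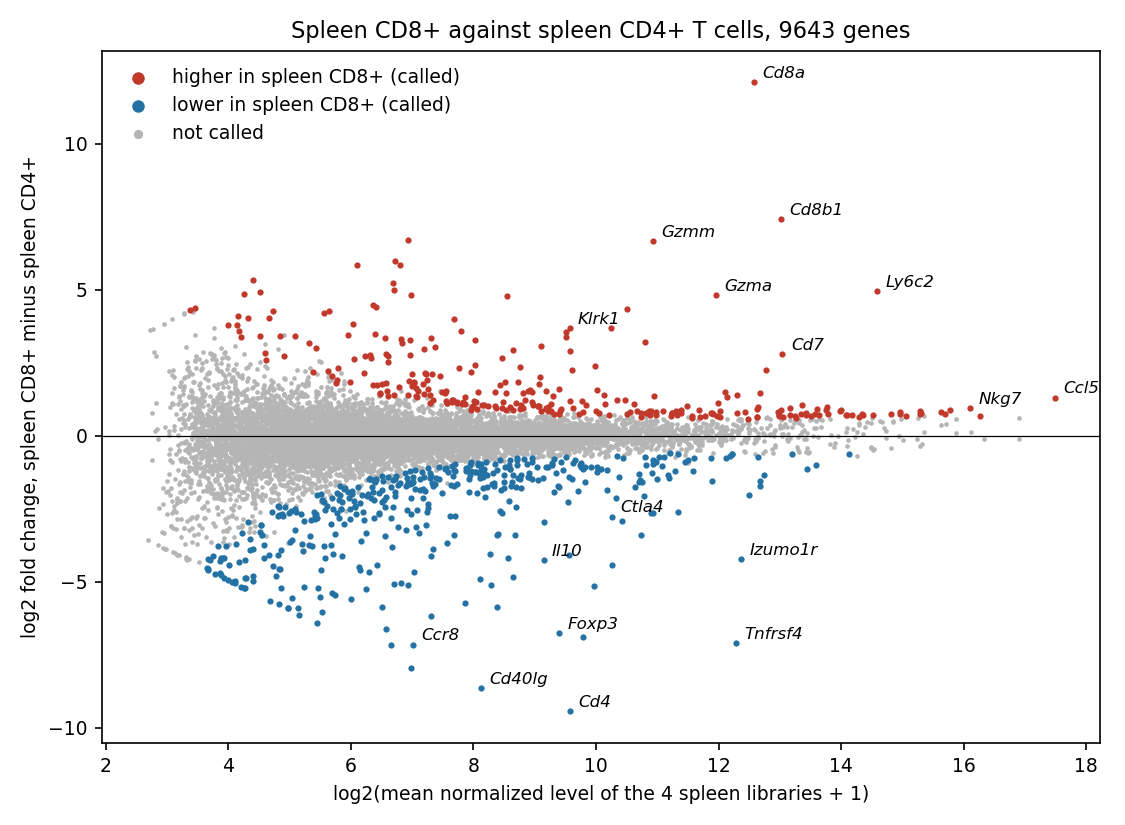
Log2 fold change of spleen CD8+ minus spleen CD4+ cells (vertical axis) against the log2 of the mean normalised level of the 4 spleen libraries plus 1 (horizontal axis), 1 point per gene for 9643 genes, with the 284 called higher and the 418 called lower in CD8+ cells in colour. Cd8a stands alone at the top at 12.11 and Cd4 at the bottom at -9.44, and 88 falls but 28 rises are at least 16-fold.

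The largest rises in CD8+ cells, beside the coreceptor itself, were granule proteases, a Ly6 antigen and several genes known mainly from other tissues. Gzmm, which encodes the serine protease granzyme M, had 4365 and 3370 in CD8+ cells, against 32.7 and 41.4 in CD4+ cells (log2 fold change 6.67 ± 0.24, adjusted p = 4.49e-10). Gzma, encoding granzyme A, had 7914 and 7445 in CD8+ cells, against 222 and 326 in CD4+ cells (log2 fold change 4.83 ± 0.21, adjusted p = 3.29e-09). Ly6c2, encoding the surface antigen Ly6C of memory CD8+ T cells and inflammatory monocytes, had 47879 and 47360 in CD8+ cells, against 1049 and 2227 in CD4+ cells (log2 fold change 4.96 ± 0.26, adjusted p = 2.89e-08). In all 3 the CD8+ replicates lay close together and far above both CD4+ ones. Fcgrt, the neonatal Fc receptor that rescues IgG from breakdown, had 634 and 814 in CD8+ cells, against 20.5 and 30.2 in CD4+ cells (log2 fold change 4.80 ± 0.33, adjusted p = 3.39e-07). Drc1, a part of the dynein regulatory complex of cilia, had 261 and 218 in CD8+ cells, against 0 and 4.31 in CD4+ cells, which was 5 reads in all. Ampd1, AMP deaminase, had 128 and 138 in CD8+ cells against 4.43 and 0 in CD4+ cells. Drc1 is best known from motile cilia and Ampd1 from skeletal muscle. Kcnj8, a potassium channel subunit, had 243 and 187 in CD8+ cells against 12.7 and 0 in CD4+ cells. The adhesion receptor gene Adgrg5 had 189 and 219 in CD8+ cells against 9.42 and 0 in CD4+ cells. The remaining large rises were Tmem108, Lcn4, Ggt1 and G0s2, with log2 fold changes of 4.49 to 5.24. Only called genes whose groups do not overlap could be among the largest rises and falls, so their separation is set by the choice. Adgrg5, Kcnj8 and G0s2 were called by limma (adjusted p = 6.20e-04, 0.00107 and 0.00656) and not by DESeq2, and 1 CD4+ library of each was at 0.

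The largest falls were genes of helper and regulatory T cells. Cd40lg, the CD40 ligand through which helper T cells activate B cells, had 0 and 0.955 in CD8+ cells, which is 1 read, against 603 and 512 in CD4+ cells. The ratio of reads was 1437, with a 95% exact counting interval of 258 to 56802. Tnfrsf4, encoding the costimulatory receptor OX40, had 62.6 and 81.2 in CD8+ cells, against 9376 and 10354 in CD4+ cells (log2 fold change -7.09 ± 0.20, adjusted p = 2.61e-11). Its neighbour Tnfrsf18, encoding GITR, had 2351 and 2243 in CD8+ cells, against 9102 and 9463 in CD4+ cells (log2 fold change -2.01 ± 0.17, adjusted p = 2.37e-06). Both receptors had separate groups, and the CD8+ cells kept far more of their GITR transcript, relative to CD4+ cells, than of OX40. Il1r2, the decoy receptor for interleukin-1, had 8.75 and 21.0 in CD8+ cells, against 1895 and 1626 in CD4+ cells (log2 fold change -6.91 ± 0.37, adjusted p = 2.88e-08). Ccr8, a chemokine receptor of regulatory and type 2 helper cells, had 0.673 and 0.955 in CD8+ cells, 1 read in each, against 249 and 263 in CD4+ cells, a ratio of reads of 322 (95% interval 88.9 to 2665). Gcg, which encodes the glucagon precursor and is known from pancreas and gut, had 0 reads in both CD8+ libraries and a level of 217 and 286 in CD4+ cells. That is at least 206-fold lower in CD8+ cells, taken against 3 reads over the group. Atp6v0d2, a proton pump subunit, had 0 and 0.955 in CD8+ cells against 201 and 198 in CD4+ cells. Angptl2, Gpr83, Nrp1, Ebi3, Cd83 and Sostdc1 complete the set, with log2 fold changes of -5.58 to -6.60. Gpr83 and Ebi3, each with 1 CD8+ library at 0, were called by limma and not by DESeq2. Both lost the call without CD4+ replicate 1 or 2, as did Cd4, Atp6v0d2, Ccr8, Angptl2 and Sostdc1. Cd40lg, Il1r2 and Cd83 lost it without CD4+ replicate 1 only, and Gcg without CD4+ replicate 2 only. Tnfrsf4, Foxp3 and Nrp1 kept it without either. The intervals and bounds on ratios of reads cover counting error only.

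**Figure D2:**
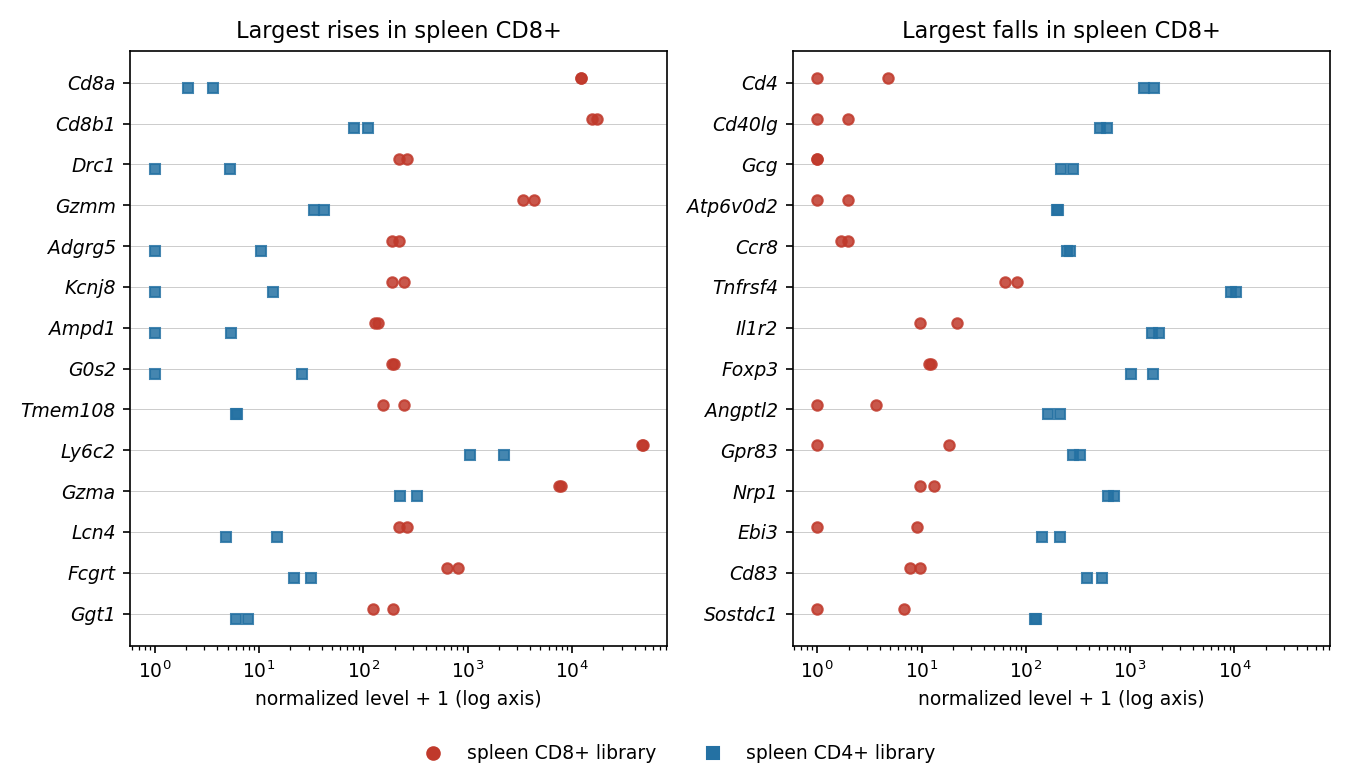
Normalised level plus 1 on a log axis for the genes with the largest rises (left panel) and the largest falls (right panel) named by rule, with 1 mark per library, circles for spleen CD8+ and squares for spleen CD4+. Only genes whose groups do not overlap could be picked, so the 2 groups are separate in both panels by choice. The CD8+ marks of Cd40lg, Gcg, Atp6v0d2 and Ccr8 sit at the left edge at 0 to 1 read per library.

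Promoter sequence is shown for 3 of the cytotoxic and killer receptor genes that rose and for Tnfrsf4, which fell, because RUNX factors and the T-box factors T-bet and Eomes are the textbook regulators of the CD8+ programme. The first 3 were picked after their matches to the RUNX core were seen, and Tnfrsf4 shows a window without one. Each is the 150 bases just upstream of the RefSeq start in assembly GRCm38.p6, a build other than the mm9 of the reads, read 5′ to 3′ along the gene, with matches to the RUNX core TGTGGT, or its reverse complement ACCACA, in capitals. The reference is the C57BL/6J strain, not MRL.
Gzma, chr13:113100982-113101131, minus strand: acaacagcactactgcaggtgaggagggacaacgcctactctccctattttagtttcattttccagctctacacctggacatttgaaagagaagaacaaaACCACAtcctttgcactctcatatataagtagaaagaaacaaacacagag
Gzmb, chr14:56262335-56262484, minus strand: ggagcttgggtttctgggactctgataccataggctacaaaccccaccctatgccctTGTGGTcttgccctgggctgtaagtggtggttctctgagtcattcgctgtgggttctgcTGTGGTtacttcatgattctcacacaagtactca
Klrk1, chr6:129623865-129624014, minus strand: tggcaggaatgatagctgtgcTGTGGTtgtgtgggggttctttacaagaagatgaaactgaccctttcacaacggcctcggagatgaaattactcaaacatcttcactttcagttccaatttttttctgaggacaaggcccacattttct
Tnfrsf4, chr4:156013545-156013694, plus strand: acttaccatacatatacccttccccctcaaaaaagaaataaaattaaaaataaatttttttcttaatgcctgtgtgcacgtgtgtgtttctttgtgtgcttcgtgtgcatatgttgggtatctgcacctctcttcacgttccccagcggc
The Gzma match starts 50 bases before the start site, the Gzmb matches 93 and 34 bases before it and the Klrk1 match 129 bases before it. In the 250 bases upstream, searched on both strands, the RUNX core was found in 33 of 213 promoters (15.5%) of genes higher in CD8+ cells that had a window and in 45 of 313 (14.4%) of genes lower in CD8+ cells. It was in 11.3% of the 7490 promoters of genes tested and in 14.2% of all 27025 promoters of the table. The T-box core GGTGTG (reverse complement CACACC) was in 17.4% of the promoters of genes higher and 17.9% of those of genes lower in CD8+ cells, against 14.8% of those tested and 16.2% of all. The 2 motifs share no full core, though their ends can overlap. A match is a description of the letters and says nothing of binding, and the shares of rises and falls were close to each other for both motifs.

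Gene lists for T cell lineages, functions and signalling were then read one by one. In each, members that passed the level filter are counted, and since a gene could pass through the group where it is high, the counts and medians describe the members and are not tests of a list. A member that did not pass is not shown to be equal in both lineages. Many members are named for the lowest adjusted p of their list, a choice that favours genes with separate groups. Remarks below that groups were separate, or high and low, therefore only describe those genes. The groups were separate in 47.8% of all genes tested. The lists share members, so the same gene can count in more than 1 of them. Icos and Il21 are in both the helper lineage and follicular helper lists, and Klrk1, Klrd1 and Cd160 in both the cytotoxic lineage and NK-type lists. The share called over all genes tested was 7.28%, and the median log2 fold change over all was -0.05. The counts are lower in fits that estimate the spread in another way. With no intensity trend and with all 8 libraries in one fit, 14 and 9 regulatory T cell genes fell, 8 and 5 helper lineage genes fell, 8 and 5 NK-type receptors rose and 3 and 2 granule genes rose, in that order of fits.

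Genes of the cytotoxic granule rose in part. Of 21 tested members of 27, 8 rose, 1 fell and 12 did not pass the test, with a median log2 fold change of 0.49. The proteases Gzmm and Gzma moved most, and the lymphocyte protease cathepsin W, Ctsw, had 11577 and 11644 in CD8+ cells, against 2057 and 2813 in CD4+ cells (log2 fold change 2.27 ± 0.19, adjusted p = 2.28e-06). Gzmb, encoding granzyme B, had 7274 and 7190 in CD8+ cells, against 2356 and 3248 in CD4+ cells (log2 fold change 1.39 ± 0.19, adjusted p = 3.02e-04). Prf1, encoding the pore-forming perforin, had 1238 and 2048 in CD8+ cells, against 602 and 610 in CD4+ cells (log2 fold change 1.39 ± 0.23, adjusted p = 0.00162). The CD4+ cells thus also held transcripts of granzyme B and perforin, below the CD8+ cells in every library. Nkg7, a granule membrane protein, had 98007 and 86598 in CD8+ cells, against 42823 and 53810 in CD4+ cells (log2 fold change 0.94 ± 0.20, adjusted p = 0.00961). The protease gene Ctsd and the granzyme inhibitor gene Serpinb6b made up the 8, at 0.76 and 0.94. The single fall was Stx11, a syntaxin of granule release, at 13.5 and 5.73 in CD8+ cells against 47.7 and 64.7 in CD4+ cells. Gzmk, encoding granzyme K, had 2460 and 2728 in CD8+ cells and 1973 and 2711 in CD4+ cells, and Fasl, the ligand of Fas, had 2651 and 2467 in CD8+ cells and 2887 and 2491 in CD4+ cells. Both overlapped between groups (adjusted p = 0.731 and 0.889). The count of rises was 3 without CD4+ replicate 1 or 2 and 6 without CD8+ replicate 1 or 2, and Stx11 was called without CD8+ replicate 1 and lost without any other library.

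Killer lectin-like and other NK-type receptors were among the lists with the highest medians. Of 21 tested members of 36, 10 rose, 3 fell and 8 did not pass, with a median of 1.90. Klrk1, encoding the activating receptor NKG2D, had 1337 and 1484 in CD8+ cells, against 96.4 and 121 in CD4+ cells (log2 fold change 3.69 ± 0.23, adjusted p = 1.58e-07). Klrc1, encoding the inhibitory NKG2A, had 2201 and 2276 in CD8+ cells, against 157 and 190 in CD4+ cells (log2 fold change 3.69 ± 0.21, adjusted p = 5.11e-08). Its partner chain CD94, from Klrd1, had 1495 and 1198 in CD8+ cells, against 130 and 96.6 in CD4+ cells (log2 fold change 3.56 ± 0.24, adjusted p = 3.39e-07). The CD8+ libraries were high and the CD4+ libraries low for both chains of the NKG2A receptor. Klre1, Klrd1, Klrk1, Klrc2 and Klrc1 lie within 1 stretch of chromosome 6, chr6:129527911-129628991 in mm9, and close copies in this family may share reads, so their separate values are uncertain. Klrc2, encoding NKG2C, had 87.5 and 89.8 in CD8+ cells, against 2.77 and 5.18 in CD4+ cells (log2 fold change 4.22 ± 0.66, adjusted p = 0.00103). Cd160, a receptor for HVEM, had 1687 and 1701 in CD8+ cells, against 285 and 357 in CD4+ cells (log2 fold change 2.40 ± 0.20, adjusted p = 3.25e-06). Klrc3, Klra3, Klra5 and Klre1 rose with log2 fold changes of 2.84 to 3.82, and Hcst, the adaptor DAP10 through which NKG2D signals, rose by 0.69. The inhibitory receptor gene Lilrb4a and the signalling adaptors Tyrobp and Fcer1g fell instead, with Tyrobp at 69.4 and 88.8 in CD8+ cells against 267 and 234 in CD4+ cells. The count of rises was 4 without CD4+ replicate 1 or 2, 7 without CD8+ replicate 1 and 9 without CD8+ replicate 2. Falls numbered 0 without either CD4+ replicate, and 1 and 3 without CD8+ replicate 1 and 2.

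Lineage genes of CD8+ cells beyond the coreceptor were mixed. Of 16 members of the cytotoxic lineage list, all tested, 10 rose, 2 fell and 4 did not pass, with a median of 1.17. The coreceptor genes Cd8a and Cd8b1, which the sort itself sets apart, are among the 10. All counts and the median of this list include them. Cd7, a surface protein of T and NK cells, had 14543 and 14974 in CD8+ cells, against 1920 and 2308 in CD4+ cells (log2 fold change 2.81 ± 0.17, adjusted p = 1.31e-07). The transcription factor gene Eomes had 807 and 636 in CD8+ cells, against 367 and 335 in CD4+ cells (log2 fold change 1.03 ± 0.22, adjusted p = 0.00986). Runx3, the factor that silences Cd4 in the CD8+ lineage, had 1107 and 1023 in CD8+ cells and 689 and 945 in CD4+ cells (log2 fold change 0.40 ± 0.21, adjusted p = 0.333). Tbx21, encoding T-bet, had 92.3 and 62.1 in CD8+ cells and 39.3 and 45.7 in CD4+ cells (log2 fold change 0.82 ± 0.44, adjusted p = 0.350). Neither Runx3 nor Tbx21 passed the test, although both CD8+ libraries lay above both CD4+ ones, as in 20.9% of all genes tested. The falls were Tnfrsf9, encoding the costimulatory receptor 4-1BB, at 492 and 549 in CD8+ cells against 4039 and 2679 in CD4+ cells, and Itgae, encoding the integrin CD103, at 98.3 and 92.6 in CD8+ cells against 533 and 247 in CD4+ cells. Itgae overlaps Gsg2 on the opposite strand, and the library kit keeps no strand. CD103 is classed as a CD8+ gene for barrier tissues, and its transcript was lower here in CD8+ cells (log2 fold change -1.91 ± 0.34, adjusted p = 0.00295). The count of rises was 7 without CD4+ replicate 1, CD4+ replicate 2 or CD8+ replicate 1, and 10 without CD8+ replicate 2. Falls numbered 1 without either CD4+ replicate and 2 without either CD8+ replicate.

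Helper lineage genes fell in CD8+ cells. Of 17 members, all tested, 14 fell, 0 rose and 3 did not pass, with a median of -2.63. Cd4, which the sort itself sets apart, is among the 14, and all counts and the median of this list include it. Zbtb7b, encoding ThPOK, the factor that fixes the CD4+ fate, had 4.71 and 0 in CD8+ cells, against 101 and 104 in CD4+ cells (log2 fold change -5.44 ± 0.87, adjusted p = 0.00121). Zbtb7b overlaps Gm15417 on the other strand. Its call was lost with no intensity trend, with all 8 libraries in one fit and without either CD4+ replicate. Icos, the costimulatory receptor of follicular helper and regulatory cells, had 476 and 586 in CD8+ cells, against 2998 and 3577 in CD4+ cells (log2 fold change -2.63 ± 0.19, adjusted p = 7.56e-07). Ctla4, the inhibitory receptor that competes with CD28, had 333 and 298 in CD8+ cells, against 2188 and 2107 in CD4+ cells (log2 fold change -2.76 ± 0.19, adjusted p = 3.98e-07). The groups were separate for each of the 3. Il21, the cytokine of follicular helper cells, had 2.69 and 0 in CD8+ cells, against 85.3 and 88.9 in CD4+ cells (log2 fold change -5.52 ± 0.86, adjusted p = 0.00103). Tnfsf11, encoding the cytokine RANKL, had 0.673 and 0 in CD8+ cells, which is 1 read, against 85.9 and 25.9 in CD4+ cells. The fall of Gata3, the factor of type 2 helper cells, was smaller, with 230 and 144 in CD8+ cells against 570 and 335 in CD4+ cells (log2 fold change -1.26 ± 0.31, adjusted p = 0.0223). Falls numbered 3 and 4 without CD4+ replicate 1 and 2, and 13 without either CD8+ replicate.

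Regulatory T cell genes showed the deepest fall of the lists read. Of 20 tested members of 23, 18 fell, 0 rose and 2 did not pass, with a median of -4.23. Foxp3 had 10.8 and 11.5 in CD8+ cells, against 1665 and 1009 in CD4+ cells (log2 fold change -6.74 ± 0.34, adjusted p = 1.77e-08). The gene lies at chrX:7156802-7172369 on the plus strand in mm9 and overlaps Ppp1r3f and Ccdc22 on the other strand, whose reads cannot be told apart from its own in an unstranded library. Izumo1r, encoding folate receptor 4, had 462 and 621 in CD8+ cells, against 10222 and 9742 in CD4+ cells (log2 fold change -4.22 ± 0.19, adjusted p = 4.98e-09). Il10, the anti-inflammatory cytokine, had 61.9 and 49.7 in CD8+ cells, against 1134 and 1017 in CD4+ cells (log2 fold change -4.25 ± 0.26, adjusted p = 1.27e-07). In each of these genes both CD8+ libraries were low and both CD4+ ones high. Il2ra, encoding CD25, had 24.2 and 10.5 in CD8+ cells, against 295 and 297 in CD4+ cells (log2 fold change -4.12 ± 0.44, adjusted p = 3.99e-05). Ikzf2, encoding the factor Helios, had 62.6 and 50.6 in CD8+ cells, against 801 and 429 in CD4+ cells (log2 fold change -3.36 ± 0.33, adjusted p = 1.46e-05). Lrrc32, which encodes GARP, the docking protein for latent TGF-beta, had 0 reads in both CD8+ libraries and 75.9 and 62.1 in CD4+ cells, at least 59.5-fold lower in CD8+ cells. Ebi3, a subunit of interleukin-35, and Nrp1, encoding neuropilin-1, were among the largest falls named above, and Ebi3 overlaps a gene model on the other strand. Entpd1, encoding CD39, did not pass, at 160 and 258 in CD8+ cells and 346 and 411 in CD4+ cells (log2 fold change -0.89 ± 0.28, adjusted p = 0.0730). Leaving out CD4+ replicate 1 or 2 gave 9 and 10 falls, and leaving out CD8+ replicate 1 or 2 gave 18 and 19.

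Follicular helper genes were lower in CD8+ cells for most members tested. Of 19 tested members of 23, 12 fell, 0 rose and 7 did not pass, with a median of -1.31. Maf, the factor that drives Il21 and Il10, had 95.6 and 72.6 in CD8+ cells, against 1438 and 1406 in CD4+ cells (log2 fold change -4.08 ± 0.24, adjusted p = 8.83e-08). Cd200, an inhibitory ligand, had 70.0 and 45.8 in CD8+ cells, against 697 and 516 in CD4+ cells (log2 fold change -3.38 ± 0.31, adjusted p = 6.94e-06). Slamf1, a receptor for T and B cell contact, had 73.4 and 122 in CD8+ cells, against 667 and 540 in CD4+ cells (log2 fold change -2.65 ± 0.29, adjusted p = 5.05e-05). The CD4+ libraries were high in all of these. Pdcd1, encoding PD-1, had 906 and 1011 in CD8+ cells, against 2542 and 2205 in CD4+ cells (log2 fold change -1.31 ± 0.18, adjusted p = 4.07e-04). Cxcr5, the receptor that leads T cells into B cell follicles, had 119 and 180 in CD8+ cells, against 372 and 282 in CD4+ cells (log2 fold change -1.14 ± 0.29, adjusted p = 0.0278). Bcl6, the defining factor of the lineage, was near the filter, at 2.69 and 15.3 in CD8+ cells and 22.2 and 12.1 in CD4+ cells, and the groups overlapped (adjusted p = 0.570). Leaving out CD4+ replicate 1 or 2 gave 2 and 3 falls, and leaving out CD8+ replicate 1 or 2 gave 9 and 11.

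Genes of type 1 effector function were mostly uncalled. Of 16 tested members of 18, 1 rose, 2 fell and 13 did not pass, with a median of -0.02. Ifng, encoding interferon-gamma, had 4023 and 3522 in CD8+ cells and 3275 and 3582 in CD4+ cells (log2 fold change 0.14 ± 0.17, adjusted p = 0.750). Tnf had 104 and 175 in CD8+ cells and 140 and 133 in CD4+ cells (log2 fold change -0.02 ± 0.33, adjusted p = 0.985). The groups overlapped for both cytokines. Il2, encoding interleukin-2, had 0 reads in both CD8+ libraries and 20.5 and 12.1 in CD4+ cells, and did not pass (adjusted p = 0.0748). The rise was Il18rap, a subunit of the interleukin-18 receptor, at 182 and 214 in CD8+ cells against 87.0 and 45.7 in CD4+ cells. The falls were Lta, encoding lymphotoxin alpha, at 99.7 and 97.4 in CD8+ cells against 573 and 607 in CD4+ cells, and Cxcr3, the receptor for interferon-induced chemokines, at 3166 and 3473 in CD8+ cells against 5689 and 5524 in CD4+ cells. Type 2 and type 17 helper genes fell where they were called. Of 5 tested type 2 members of 13, 3 fell, and of 9 tested type 17 members of 17, 5 fell, with 0 rises in either list. The falls were Gata3, Ccr4 and Ccr8 of type 2, and Ccr6, Batf, Maf, S100a4 and Tmem176a of type 17. Ccr6, the receptor for CCL20, had 2.69 and 6.68 in CD8+ cells, against 178 and 92.3 in CD4+ cells (log2 fold change -4.60 ± 0.65, adjusted p = 4.15e-04). Ccr4 had 0 reads in CD8+ cells and 46.0 and 27.6 in CD4+ cells, at least 32.8-fold lower in CD8+ cells. Without either CD4+ replicate, 0 type 1 members, 0 type 2 members and 1 type 17 member fell, and 0 type 1 members rose without any 1 of the 4 libraries.

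**Figure D3:**
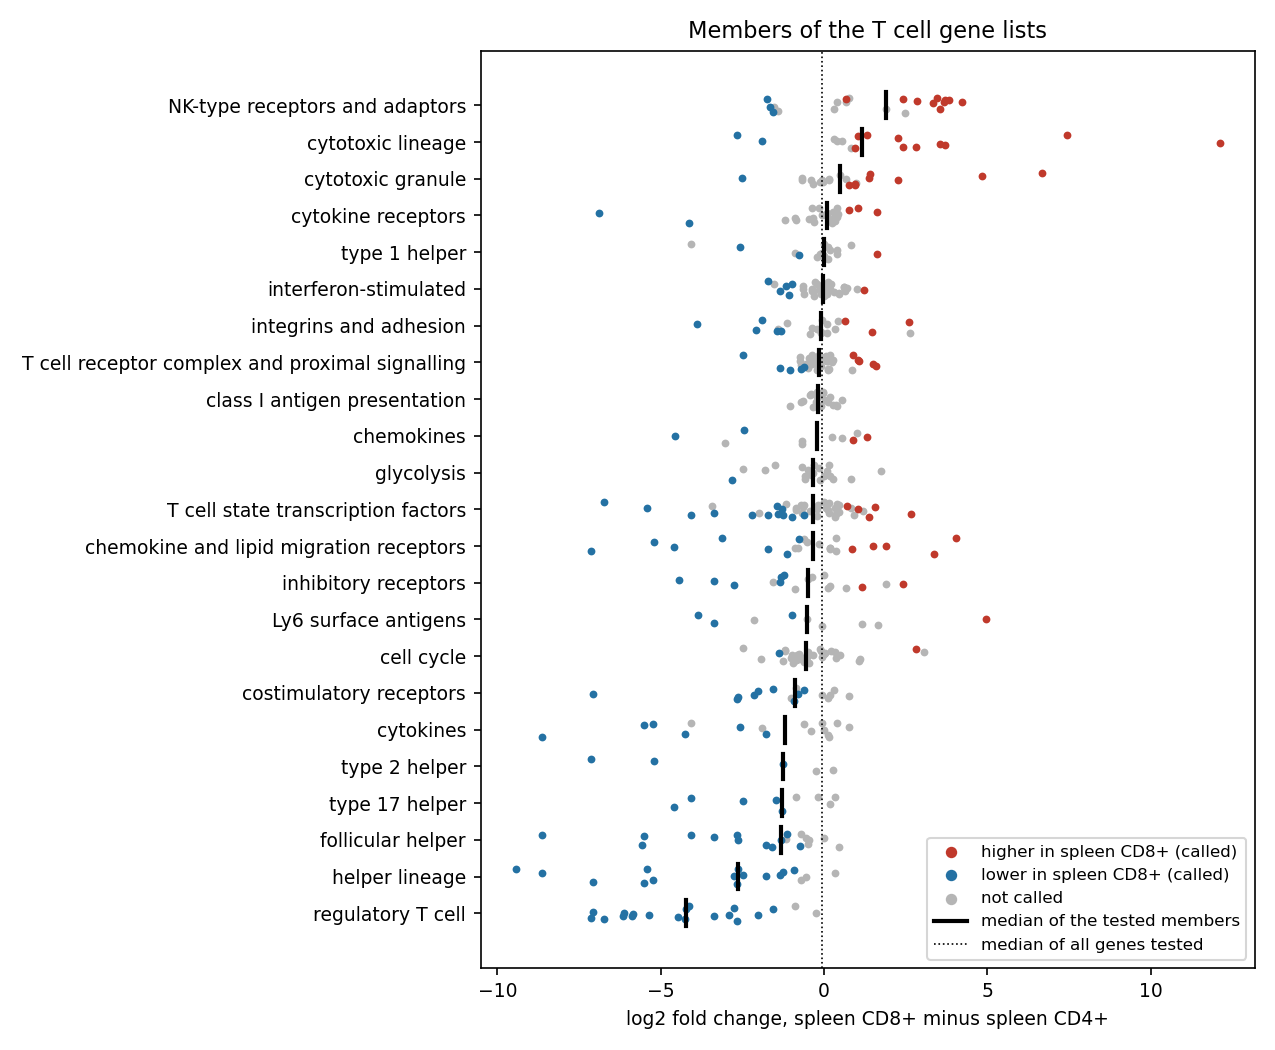
Log2 fold change of spleen CD8+ minus spleen CD4+ cells for each tested member of the T cell gene lists, 1 row per list, with called and uncalled members marked apart and the median of each list drawn. Regulatory T cell members lie furthest to the left with a median of -4.23, NK-type receptors furthest to the right with 1.90, and class I antigen presentation, interferon-stimulated and type 1 genes lie around 0.

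Ccr7 and Klf2, genes of recirculating T cells, were higher in CD8+ cells, while migration receptors as a list moved in both directions. Among 22 tested migration receptors of 28, 5 rose, 7 fell and 10 did not pass, with a median of -0.34. Ccr7, the receptor for entry into lymph nodes, had 5452 and 7679 in CD8+ cells, against 2173 and 2363 in CD4+ cells (log2 fold change 1.51 ± 0.19, adjusted p = 1.80e-04). Klf2, the factor that drives S1pr1, had 3005 and 2688 in CD8+ cells, against 1128 and 1078 in CD4+ cells (log2 fold change 1.36 ± 0.18, adjusted p = 2.15e-04). Both genes had the CD8+ libraries above the CD4+ ones. S1pr1 itself, the receptor for exit into lymph, had 731 and 942 in CD8+ cells and 729 and 739 in CD4+ cells and did not pass (adjusted p = 0.725). Ccr9, the gut homing receptor, had 230 and 346 in CD8+ cells, against 22.7 and 31.1 in CD4+ cells (log2 fold change 3.36 ± 0.38, adjusted p = 7.02e-05), and overlaps Lztfl1 on the other strand. The receptors S1pr5 and Cx3cr1 are known from circulating effector cells. S1pr5 had 45.8 and 46.8 in CD8+ cells against 0.554 and 4.31 in CD4+ cells, and Cx3cr1 had 168 and 221 in CD8+ cells against 54.9 and 48.3 in CD4+ cells. Gpr18 made the fifth rise. The falls, beside Ccr8, Ccr6, Ccr4, Cxcr5 and Cxcr3, were Ccrl2 and the prostaglandin receptor gene Ptger2. In the fits without CD4+ replicate 1 or 2, 0 members rose and 0 fell, without CD8+ replicate 1 it was 4 and 5, and without CD8+ replicate 2 it was 2 and 7.

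Among 44 tested transcription factors of T cell states, 5 rose, 12 fell and 27 did not pass, with a median of -0.33. Satb1, a chromatin organiser of thymocytes and naive T cells, had 660 and 554 in CD8+ cells, against 82.6 and 110 in CD4+ cells (log2 fold change 2.66 ± 0.27, adjusted p = 1.91e-05). Lef1, a partner of beta-catenin kept in memory cells, had 1306 and 1784 in CD8+ cells, against 481 and 550 in CD4+ cells (log2 fold change 1.57 ± 0.21, adjusted p = 2.94e-04). Klf2, Eomes and Hopx were the other rises. Tcf7, which encodes the related factor TCF-1, had 1764 and 2058 in CD8+ cells and 1305 and 1471 in CD4+ cells and did not pass (log2 fold change 0.46 ± 0.18, adjusted p = 0.173). Batf, an AP-1 factor of effector cells, had 1222 and 1022 in CD8+ cells, against 2713 and 2743 in CD4+ cells (log2 fold change -1.29 ± 0.18, adjusted p = 4.08e-04). Bhlhe40, Nfil3, Zbtb32, Nfatc1 and Nr4a1, all known as genes of activated T cells, fell with log2 fold changes of -0.99 to -2.20. Id2 fell by 0.61 on the log2 scale, with 8027 and 6833 in CD8+ cells against 10967 and 11682 in CD4+ cells. Without CD4+ replicate 1 or 2, 0 and 1 members rose and 2 and 3 fell, without CD8+ replicate 1 it was 3 and 9, and without CD8+ replicate 2 it was 4 and 8.

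Costimulatory and inhibitory receptors were mostly lower in CD8+ cells where they were called. Of 16 tested costimulatory receptors of 17, 9 fell, 0 rose and 7 did not pass, with a median of -0.88. Tnfrsf25, encoding death receptor 3, had 35.7 and 57.3 in CD8+ cells, against 216 and 192 in CD4+ cells (log2 fold change -2.14 ± 0.37, adjusted p = 0.00210). Cd28, the main costimulatory receptor, had 1734 and 2172 in CD8+ cells, against 3529 and 3748 in CD4+ cells (log2 fold change -0.91 ± 0.18, adjusted p = 0.00628). Fas, mutated in this strain, had 335 and 321 in CD8+ cells, against 520 and 626 in CD4+ cells. Its call (log2 fold change -0.80 ± 0.22, adjusted p = 0.0429) was lost in 9 of 16 alternatives, namely TMM scaling, quantile normalisation, no filter on levels, no intensity trend, all 8 libraries in one fit and leaving out any 1 of the 4 libraries. The values say nothing of the mutant protein. Of 17 tested inhibitory receptors of 20, 2 rose, 6 fell and 9 did not pass, with a median of -0.49. The rises were Cd160 and Lair1, a collagen receptor, and Tigit, a receptor for CD155, fell to 1807 and 1887 in CD8+ cells, against 4386 and 4197 in CD4+ cells (log2 fold change -1.22 ± 0.17, adjusted p = 3.72e-04). Lag3 and Havcr2, receptors known from exhausted T cells, overlapped between groups, with Havcr2 at 199 and 155 in CD8+ cells and 143 and 178 in CD4+ cells (adjusted p = 0.306 for Lag3 and 0.871 for Havcr2). Costimulatory falls numbered 4 without CD4+ replicate 1 or 2, 6 without CD8+ replicate 1 and 7 without CD8+ replicate 2. Inhibitory falls numbered 1, 1, 6 and 7 without CD4+ replicate 1, CD4+ replicate 2, CD8+ replicate 1 and CD8+ replicate 2, and inhibitory rises 1, 1, 1 and 2.

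Secreted factors followed 2 directions. Among 16 tested cytokines of 31, 6 fell, 0 rose and 10 did not pass, with a median of -1.20, and the falls were Cd40lg, Il10, Il21, Lta, Tnfsf8 and Tnfsf11. Tnfsf8, the CD30 ligand, had 123 and 208 in CD8+ cells, against 601 and 504 in CD4+ cells (log2 fold change -1.77 ± 0.28, adjusted p = 0.00109). Among 10 tested chemokines of 12, 2 rose and 2 fell. Ccl5, encoding RANTES, had 284947 and 235329 in CD8+ cells, against 88307 and 123138 in CD4+ cells (log2 fold change 1.31 ± 0.23, adjusted p = 0.00235). Ccl4 had 24930 and 17744 in CD8+ cells, against 10871 and 11767 in CD4+ cells (log2 fold change 0.89 ± 0.19, adjusted p = 0.0106). Both are known products of cytotoxic cells. Ccl1, the ligand of CCR8, had 4.04 and 0 in CD8+ cells, against 57.1 and 48.3 in CD4+ cells (log2 fold change -4.58 ± 0.95, adjusted p = 0.00867). Cxcl10, an interferon-induced chemokine, was the other fall, with a log2 fold change of -2.44 ± 0.44 (adjusted p = 0.00278). Without CD4+ replicate 1 or 2, 1 and 2 cytokines fell and 0 chemokines changed, and Ccl5 and Ccl4 were both called only without CD8+ replicate 2 among the 4 fits that leave out a library.

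Most T cell receptor signalling, adhesion and cytokine receptor genes were uncalled, with both directions among the calls. The shares called were still above the 7.28% of all genes tested, at 25.6% for signalling, 38.1% for adhesion and 20.8% for cytokine receptors. Of 39 tested members of the receptor complex and its proximal signalling, 5 rose, 5 fell and 29 did not pass, with a median of -0.15. Txk, a Tec family kinase, had 621 and 834 in CD8+ cells, against 228 and 253 in CD4+ cells (log2 fold change 1.58 ± 0.23, adjusted p = 6.57e-04), and Tec, Themis, Grap2 and Ptpn6 were the other rises. Trat1, an adaptor that binds the receptor, had 39.1 and 52.5 in CD8+ cells, against 254 and 260 in CD4+ cells (log2 fold change -2.48 ± 0.34, adjusted p = 3.32e-04). Cd5, a damper of receptor signals, had 1215 and 1392 in CD8+ cells, against 3492 and 3142 in CD4+ cells (log2 fold change -1.35 ± 0.18, adjusted p = 2.52e-04). Lcp2, Cd2 and Cd247 were the other falls. Of 24 tested cytokine receptors of 31, Il18rap, Ifngr1 and Il10rb rose, Il2ra and Il1r2 fell and 19 did not pass, and Il10rb overlaps Ifnar2 on its own strand. Il7r and Il2rb, which carry the signals that keep memory CD8+ cells alive, did not pass, with Il2rb at 628 and 862 in CD8+ cells and 803 and 592 in CD4+ cells (adjusted p = 0.336 and 0.885). Cytokine receptor rises numbered 1 without CD8+ replicate 1 and 0 without any other library, and falls 0 and 1 without CD4+ replicate 1 and 2 and 2 without either CD8+ replicate. Ifngr1 and Il10rb also lost the call with no filter on levels, and Ifngr1 with a pseudocount of 0.5. Of 21 tested integrin and adhesion genes of 25, 3 rose, among them Selplg and Itgam, Cd9, Itgae, Itgb1, Itgb3 and Cd44 fell and 13 did not pass. The tetraspanin gene Cd9 had 652 and 704 in CD8+ cells, against 2656 and 3064 in CD4+ cells (log2 fold change -2.07 ± 0.18, adjusted p = 5.21e-06). Adhesion rises numbered 0 without CD4+ replicate 1 or 2 and 1 without either CD8+ replicate, and falls 1 and 0 without CD4+ replicate 1 and 2 and 4 and 5 without CD8+ replicate 1 and 2. Without CD4+ replicate 1 or 2, 0 members of the signalling list rose or fell, without CD8+ replicate 1 it was 2 and 3, and without CD8+ replicate 2 it was 1 and 4.

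The Ly6 antigens split. Ly6c2 rose, while its neighbour Ly6c1 had 39.7 and 30.6 in CD8+ cells, against 354 and 393 in CD4+ cells (log2 fold change -3.38 ± 0.33, adjusted p = 1.46e-05). Ly6a, encoding the interferon-induced antigen Sca-1, had 8777 and 7772 in CD8+ cells, against 15742 and 17013 in CD4+ cells (log2 fold change -0.99 ± 0.17, adjusted p = 0.00219). Ly6e, in the same family, had 25762 and 27668 in CD8+ cells and 26917 and 28785 in CD4+ cells, with overlapping groups (adjusted p = 0.905). Of 9 tested members, 1 rose, 3 fell and 5 did not pass, and since the family holds near-identical copies whose reads may be shared, the opposite signs of Ly6c2 and Ly6c1 are uncertain in size. The third fall was Ly6g, at 0 and 5.73 in CD8+ cells against 30.5 and 44.0 in CD4+ cells. Falls numbered 0 without CD4+ replicate 1 or 2, and 2 and 3 without CD8+ replicate 1 and 2.

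Interferon-stimulated, cell cycle, glycolysis and class I presentation genes were for the most part uncalled. Of 37 tested interferon-stimulated genes of 40, 1 rose, 5 fell and 31 did not pass, with a median of -0.03. Usp18, the protease that dampens interferon signalling, was the rise, at 1683 and 1978 in CD8+ cells against 778 and 768 in CD4+ cells (log2 fold change 1.24 ± 0.19, adjusted p = 7.30e-04). Ifi27l2a had 3504 and 2647 in CD8+ cells, against 9391 and 10488 in CD4+ cells (log2 fold change -1.70 ± 0.18, adjusted p = 3.99e-05), and Isg20, Oas1a, Iigp1 and Ly6a were the other falls. Usp18 and Ifi27l2a, both induced by type I interferon, thus moved in opposite directions. Of 37 tested cell cycle genes of 46, 1 rose and 1 fell (5.41% called, under the 7.28% of all genes). The list still leaned lower in CD8+ cells, with a median of -0.55 against -0.05 over all genes, and with 28 members negative and 9 positive. Mki67, the proliferation marker, had 18.2 and 32.5 in CD8+ cells and 44.9 and 72.5 in CD4+ cells (adjusted p = 0.247). The rise was Kif23, a kinesin of cell division, at 131 and 201 in CD8+ cells against 30.5 and 16.4 in CD4+ cells, and the fall was Rrm2, a subunit of ribonucleotide reductase. Kif23 was called without CD8+ replicate 1 and lost without any other library, and Rrm2 was lost without any 1 of the 4. Of 21 tested glycolysis genes, 1 fell, the aldolase gene Aldoc, which lost the call without CD4+ replicate 1 or 2. The 21 glycolysis genes had a median of -0.33, with 14 negative and 7 positive. Of 22 tested genes of class I antigen presentation, 0 were called by limma, with 5 at an unadjusted p below 0.05, 0 called by edgeR and 1 by DESeq2. The log2 fold changes of these 22 had a median of -0.19. In the fits without CD4+ replicate 1 or 2, 0 interferon-stimulated genes were called, and without CD8+ replicate 1 or 2, 1 rose and 4 and 5 fell.

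Markers of other cells were read for the whole of each list, as the sum of the levels of its genes. Neutrophil genes summed to 3770 and 6731 in CD8+ libraries and 5951 and 9773 in CD4+ libraries, with 1 of 12 tested members lower in CD8+ cells. Erythroid genes summed to 20760 and 13559 in CD8+ libraries and 25623 and 20128 in CD4+ libraries, with 0 of 9 called. Plasma cell genes summed to 991 and 1637 in CD8+ libraries and 1735 and 2504 in CD4+ libraries, with 0 of 5 called. These 3 sets were present in every library. Their tested members leaned lower in CD8+ cells, with 12 of 12 neutrophil, 8 of 9 erythroid and 5 of 5 plasma cell genes negative. The median log2 fold changes were -0.50, -0.40 and -0.85, against -0.05 over all genes. Macrophage genes summed to 3471 and 4477 in CD8+ libraries and 6851 and 6909 in CD4+ libraries, and C1qa, C1qb, Cd5l and Ctss, 4 of 10 tested, fell. Dendritic cell genes summed to 2578 and 3236 in CD8+ libraries and 5737 and 4715 in CD4+ libraries, and of 8 tested members 1 rose, 2 fell and 5 did not pass. The rise was Ccr9, and the falls were Cd74 and H2-Eb1 of the class II pathway. The macrophage receptor gene Csf1r had 0 and 3.82 in CD8+ libraries and 27.7 and 10.4 in CD4+ libraries. B cell genes summed to 1013 and 910 in CD8+ libraries and 482 and 411 in CD4+ libraries, of which Cd79b made most, at 931 and 794 in CD8+ cells against 299 and 292 in CD4+ cells (log2 fold change 1.54 ± 0.21, adjusted p = 3.72e-04). Cd79a, its partner in the B cell receptor, had 33.0 and 49.7 in CD8+ cells and 53.2 and 28.5 in CD4+ cells. NK cell genes summed to 9178 and 8591 in CD8+ libraries and 1137 and 1121 in CD4+ libraries. Gzma alone made most of the CD8+ sums, at 7914 and 7445, but not of the CD4+ sums, at 222 and 326. The gap between the sums thus rests mainly on Gzma. Of 8 tested members Gzma, Eomes, Klre1 and Klrc2 rose, Tyrobp and Fcer1g fell and 2 did not pass. The defining NK receptor gene Ncr1 had 0 reads in both CD8+ libraries and 15.5 and 0 in CD4+ libraries. Klrb1c, which encodes the NK1.1 antigen, had 27.6 and 33.4 in CD8+ libraries and 16.1 and 0.863 in CD4+ libraries (log2 fold change 2.48 ± 0.99, adjusted p = 0.176). The part of NK cells in the rises of the NK-type receptors and granzymes was not tested. Genes of gamma-delta and innate-like T cells summed to 12.1 and 52.5 in CD8+ libraries and 13.9 and 1.73 in CD4+ libraries, and platelet genes to at most 9.49 in any of the 4, with 0 genes of either list above the filter. The part of other cells in the falls of Cd74, H2-Eb1, Tyrobp, Fcer1g and the macrophage genes was not tested. Without either CD4+ replicate, 0 macrophage, dendritic cell or B cell genes were called, and macrophage falls numbered 1 and 3 without CD8+ replicate 1 and 2. NK cell list rises numbered 1, 1, 2 and 4 without CD4+ replicate 1, CD4+ replicate 2, CD8+ replicate 1 and CD8+ replicate 2.

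**Figure D4:**
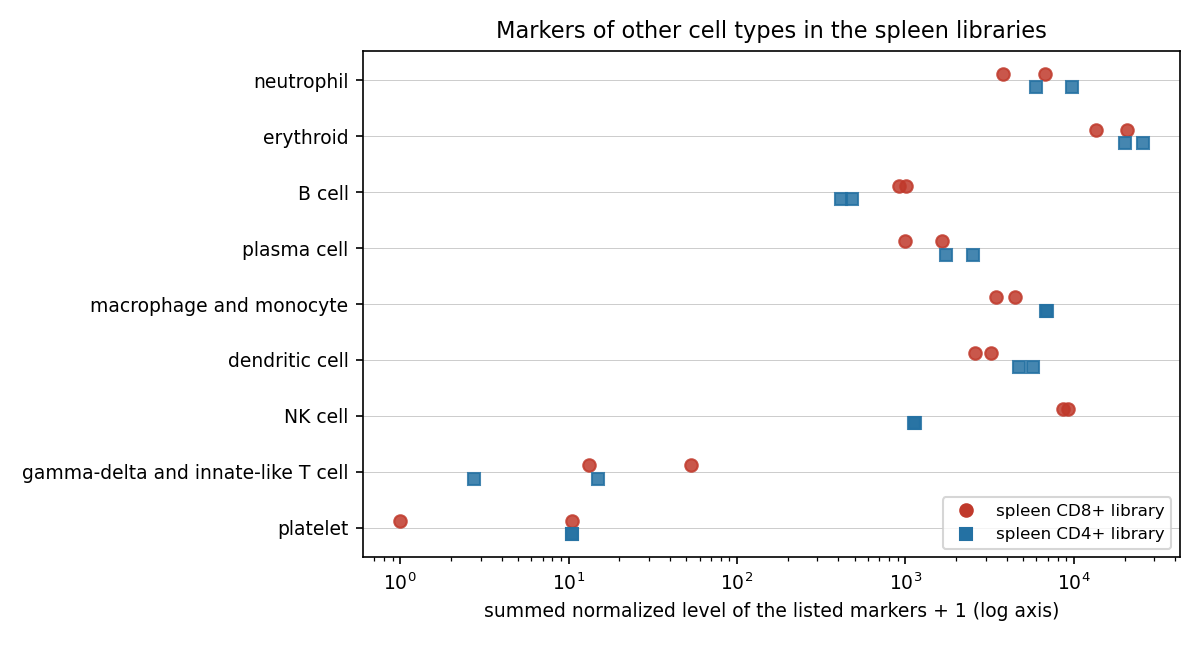
Summed normalised level of the listed marker genes of other cell types on a log axis, 1 row per cell type, with circles for spleen CD8+ libraries and squares for spleen CD4+ libraries. The NK cell sum is higher in both CD8+ libraries (9178 and 8591 against 1137 and 1121), mainly through Gzma (7914 and 7445 against 222 and 326). Macrophage and dendritic cell sums are lower in the CD8+ libraries. Neutrophil and erythroid sums overlap between the groups, although 12 of 12 and 8 of 9 tested members have a negative log2 fold change.

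The same contrast was read in the kidney libraries, which share no library with the spleen. The labels do not say whether cells of both organs came from the same mice, so the organs may not be independent. In a fit of all 8 libraries, 246 of the 284 genes higher in spleen CD8+ cells (86.6%) also had a positive CD8+ minus CD4+ difference in kidney, against 52.9% of all genes tested. Of the 418 lower in spleen CD8+ cells, 348 (83.3%) had a negative one in kidney, against 46.7% of all. The median kidney log2 fold change was 0.77 for the rises and -0.95 for the falls of spleen, and 0.05 over all genes. In the same fit the kidney contrast gave 14 calls higher (0.145%) and 9 lower (0.0933%), of which 11 and 9 were called in spleen in the same direction. Across the 702 genes the spleen and kidney log2 fold changes had a Pearson r of 0.765, and 0.397 across all tested, as a description over genes that are not independent. Gzma in kidney had 7534 and 7103 in CD8+ cells, against 169 and 458 in CD4+ cells (log2 fold change 4.71 ± 0.48, adjusted p = 0.00955), close to its spleen value of 4.83. Tnfrsf4 in kidney had 321 and 244 in CD8+ cells, against 17913 and 22169 in CD4+ cells (log2 fold change -6.15 ± 0.34, adjusted p = 2.56e-04), against -7.09 in spleen.

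No gene passed a test of the difference between the organs, so none of these effects is shown to be particular to the spleen. The limma contrast of spleen difference minus kidney difference gave 0 calls, and edgeR gave 0 as well. In limma, 296 of 9643 genes had an unadjusted p below 0.05, fewer than that threshold alone would give if no gene differed. The count of calls was no longer 0 when either kidney CD4+ library was left out. Such a fit leaves 1 library in that group, with no spread of its own, so its calls cannot show which effects differ. Why the count moved was not tested. Some values of named genes nevertheless stood far apart, each with an adjusted limma p of 0.999. Fcgrt had 83.2 and 70.9 in kidney CD8+ cells and 111 and 28.1 in kidney CD4+ cells, with overlapping groups, unlike in spleen (spleen minus kidney log2 fold change 4.35, unadjusted p = 0.00137, adjusted p = 0.999). Ggt1, a gamma-glutamyl transferase that is also abundant in kidney tubules, had 30.6 and 70.1 in kidney CD8+ cells and 137 and 43.7 in kidney CD4+ cells. Drc1 and Ampd1, among the largest rises of spleen, had 0 reads in all 4 kidney libraries. Gzmb in kidney had 17598 and 16917 in CD8+ cells, against 1705 and 1940 in CD4+ cells, a log2 fold change of 3.25 ± 0.34 beside 1.39 in spleen (unadjusted p of the difference 0.00435, adjusted p = 0.999). Tnfsf8 in kidney had 28.0 and 23.1 in CD8+ cells, against 724 and 900 in CD4+ cells, a log2 fold change of -4.93 ± 0.41 beside -1.77 in spleen (unadjusted p of the difference 5.61e-04, adjusted p = 0.999).

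**Figure D5:**
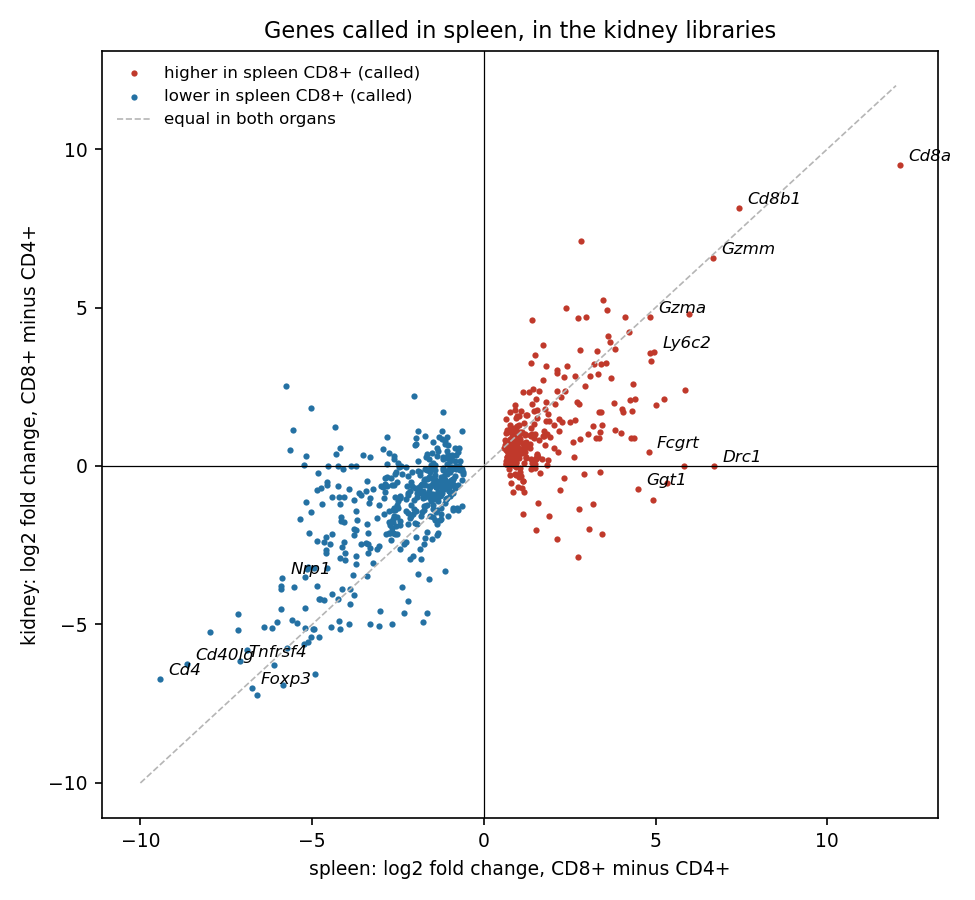
Log2 fold change of CD8+ minus CD4+ cells in kidney (vertical axis) against the same in spleen (horizontal axis) for the 702 genes called in spleen, 1 point per gene, from separate libraries. Of the 284 rises 246 lie above 0 on the kidney axis and of the 418 falls 348 lie below it.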

How the data were processed

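Libraries of sorted T cell RNA used SMART-Seq v4, per the labels' protocols, a kit for low inputs that copies whole transcripts without their strand. Reads were aligned to mm9, per the labels. The submitters' processing notes name STAR 2.5.3 and TopHat2 2.1.0 without their roles. The sources used here do not give how reads were counted, or over which genes. The deposited table holds normalised signal for 13341 genes in 8 libraries. Each library's deposited signal had 1 step, of which 100% of its values were multiples (tolerance 1e-06), and this gives back whole reads. Of its columns 0 were left unused.

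The 4 spleen libraries entered a limma 3.58.1 fit of log2(level + 1) under R 4.3.3 (empirical Bayes with an intensity trend, 2-sided), restricted to genes that reached 10 in 2 or more of them. Benjamini-Hochberg adjustment ran over all 9643 genes, and every adjusted p without a named tool is limma's. The log2(level + 1) scale understates changes of low genes, and SE is the moderated standard error of the log2 fold change. Just inside the filter, 1700061G19Rik had 10.1 in its second highest library, and just outside it Tesk2 had 9.98. The organs were compared by an interaction contrast over all 8 libraries. edgeR 4.0.16 and DESeq2 1.42.0 were run on the recovered whole reads as alternatives. The spleen test was checked on simulated data. A fold against 0 reads is a bound taken against 3 reads over the group.

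Of the 153 genes named by rule, 116 had a RefSeq promoter window. Of the 13341 symbols, 12069 matched a gene of the mm9 annotation (GENCODE vM1). In all, 282 genes held the same values as another gene in every library, Hbb-b2 and Hbb-bt among them. Named genes were the 14 largest rises and 14 largest falls among called genes with non-overlapping groups and a mean level of at least 100 in the higher group, the 5 members of each list with the lowest adjusted p, and a fixed set. The largest rises and falls skip gene models named by a code, receptor segments and histones. Further list members were named after their values were seen, mainly to complete short counts. The members and lists were chosen with earlier results of these data known. Alternatives were other pseudocounts, filters, scalings, tools and sets of libraries. Values of some genes in these lists are not reported here.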

Additional observations from a re-analysis of the deposited data

How the results depend on the processing

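Counts of genes higher and lower in spleen CD8+ cells, 284 and 418 or 702 in all, moved by over 1.5 times under 2 choices beside leaving out a library. They were 69 and 139, 208 in all, without the intensity trend, and 18 and 29, 47 in all, with all 8 libraries in one fit. Leaving out 1 spleen library at a time gave 24 to 136 higher, 16 to 326 lower and 40 to 462 in all, with a single library on one side that is assumed to vary like the other group. Under the other pseudocounts, filters, scalings, library weights, edgeR and DESeq2, counts stayed within 1.5 times (edgeR 340 and 480, DESeq2 402 and 490). The median of all genes was -0.05 as reported, -0.01 with TMM scaling and 0.03 with quantile normalisation. The difference between organs gave 0 to 890 calls when 1 library was left out.

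Among the genes named by rule, whose signs were followed, only uncalled ones changed sign. When 1 library was left out, the log2 fold change of Cd79a ran between -0.39 and 0.49, that of Bank1, a B cell adaptor gene, between -0.78 and 0.82, and that of Cd3e between -0.25 and 0.039. The log2 fold change of Bank1 was -0.00776 with edgeR. The cause was not tested. Calls of named genes were lost for 79 of 107 without CD4+ replicate 1, 77 without CD4+ replicate 2, 75 with all 8 libraries, 55 without the trend, 19 without CD8+ replicate 1 and 10 without CD8+ replicate 2.

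Replicate numbers are shared between the groups, but no label says that they pair samples, and the replicate differences of the groups correlated at 0.00712 across genes. Some marker sums still followed the replicate number. Neutrophil, plasma cell and macrophage sums were higher in replicate 2 of both groups, and erythroid, B cell and NK cell sums in replicate 1 of both. Dendritic cell, gamma-delta and platelet sums did not move the same way in both groups. Whether samples are paired was not tested. With the replicate block, 310 genes were higher and 520 lower.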
